A study of Mus musculus with 32 samples.

Results

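The comparison described here is that of liver between mice given auranofin and mice given vehicle, across every gene with a mean of 0.5 FPKM or more over the 8 liver libraries. FPKM are read counts divided by gene length and by library size, so levels of different genes can be set side by side. The rule kept 13122 of the 54532 genes in the table. All groups were wild-type C57/Bl6j mice fed a diet with 60% fat for 12 weeks, after which they received vehicle or auranofin at 1 mg per kg body weight 3 times a week for 4 weeks. Liver gave 4 vehicle and 4 auranofin libraries, and the same design in inguinal, epididymal and brown fat gave the 24 libraries with which liver was compared. No group on a lean diet belongs to this comparison, so the vehicle group is itself a group fed the high-fat diet. The labels do not say that the libraries of a group came from different animals, so the p-values measure only the spread between these libraries. They also do not give the time between the last dose and tissue collection.

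Auranofin is a gold-containing drug long used against rheumatoid arthritis. Gold binds the selenocysteine of thioredoxin reductase, the enzyme that returns oxidised thioredoxin to its reduced form and so feeds peroxiredoxins, methionine sulfoxide reductases and ribonucleotide reductase. Inhibition of this enzyme in cultured cells releases the transcription factor NRF2 from KEAP1 and raises antioxidant genes, and electrophiles and heavy metals are known to raise heme oxygenase, metallothioneins and heat-shock proteins. The liver is a main site of drug, thiol and selenium metabolism, and in diet-induced obesity its hepatocytes store triglyceride in lipid droplets.

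The libraries held RNA of liver. Albumin (Alb) stood at 47427 ± 6871 FPKM (SD, n = 8) and apolipoprotein A1 (Apoa1) at 9277 ± 2118 FPKM, while the adipokines Lep and Adipoq reached at most 0.0273 and 0.132 FPKM and Ucp1, the uncoupling protein of brown fat, was at 0 in each of the 8. Reads in genes numbered 15212904 to 18109130 per vehicle library and 14981602 to 16619007 per auranofin library. Pearson correlations of log2(FPKM + 1) across genes were 0.977 to 0.986 between libraries of the same group and 0.974 to 0.986 between libraries of different groups, with medians of 0.981 and 0.982. The treatment groups were therefore no further apart in this measure than libraries of 1 group. The first principal component, with 22.5% of the variance, ran from vehicle replicate 2 at -17.4 to auranofin replicate 4 at 26.9. The other vehicle libraries lay between -6.75 and 5.87, and auranofin replicates 1 to 3 at -5.33, -11.8 and 13.6, so it did not part the groups.

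No gene passed the test in liver. With limma on log2(FPKM + 1), 0 of 13122 genes reached a Benjamini-Hochberg adjusted p under 0.05, which is 0% in either direction, and voom on whole reads rebuilt from the table also called 0. At an unadjusted p under 0.05, 328 genes (2.50%) were higher and 465 (3.54%) lower under auranofin, 793 or 6.04% in all. Values of the 4 auranofin libraries lay wholly above those of the 4 vehicle libraries for 199 genes (1.52%) and wholly below for 289 (2.20%), 3.72% in all. Log2 changes, auranofin minus vehicle, were above 0 for 6258 genes (47.7%) and below 0 for 6864 (52.3%), with a median of -0.0080. Every change given below is on this log2(FPKM + 1) scale, on which genes with low levels appear to differ less than they do, and no gene named below passed the test. Gene lists and their members were chosen with earlier results of these data known, and members of a list are not independent of each other. The shares of all genes set beside list counts below are therefore a description and no test.

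The precision of the comparison bounds how large a response could have been for most genes on the log2(FPKM + 1) scale. The median standard error of a log2 change was 0.113, and its 95% interval reached a median of 0.256 to either side. For 12415 genes (94.6%) the whole interval lay within a 2-fold difference in FPKM + 1 either way, and for 82.5% within 1.5-fold. For the 3830 genes under 2 FPKM such an interval still allows a larger fold difference in FPKM itself. Only 34 genes had an estimate beyond 1 on the log2 scale, of which 24 had a mean under 2 FPKM. The centre of the distribution moved slightly with level: genes under 2 FPKM had a median log2 change of 0.026 and genes of 100 FPKM or more one of -0.055, so lists of abundant transcripts are best read against the latter. The plot of level against change shows a band that is widest at the lowest levels, with the genes of smallest p at its edges.

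**Figure D1:**
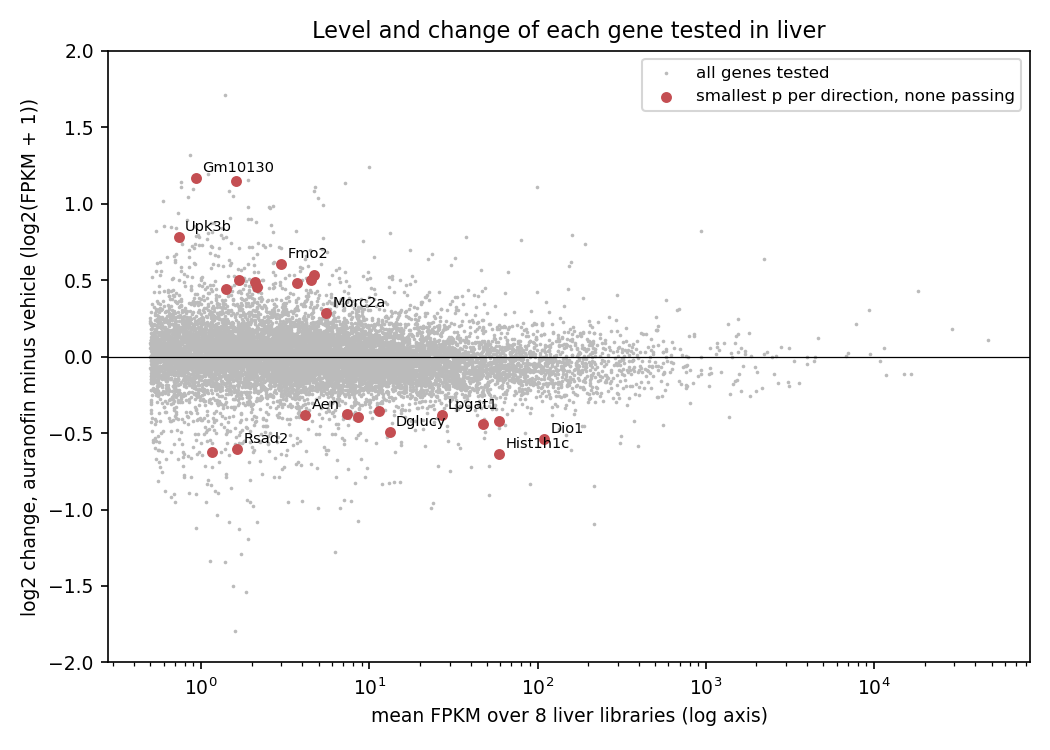
Each point is a gene tested in liver, with its mean FPKM over 8 libraries on a log axis and its log2 change (auranofin minus vehicle) on the vertical axis. Red points are the 24 protein-coding genes, 12 per direction, with the smallest p among those whose groups did not overlap; none passed an adjusted p under 0.05, and 10 of them carry their names.

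The gene nearest to the threshold was Gm23354, a small nuclear RNA gene of 104 bases on chr4:108041697-108041800 (build mm10) that was named after its values were seen. Its levels were 2.90, 2.52, 3.13 and 3.52 FPKM in vehicle replicates 1 to 4 and 0, 0, 0 and 0.762 FPKM in auranofin replicates 1 to 4, with a limma adjusted p of 0.0824. These levels stand for 4, 3, 4 and 4 reads against 0, 0, 0 and 1 reads per library. The library kit is not one for small RNAs, and so few reads show little about the gene. The next smallest limma adjusted p was 0.278, for the noncoding gene Gm48194.

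The target pathway of the drug came first among the fixed genes. Txnrd1, the cytosolic thioredoxin reductase on chr10:82833951-82897712 (mm10), stood at 28.8, 34.4, 30.3 and 27.2 FPKM in vehicle replicates 1 to 4 and at 30.4, 30.2, 22.5 and 26.7 FPKM in auranofin replicates 1 to 4. The groups overlapped, and the log2 change was -0.14 with a 95% interval of -0.39 to 0.12. Srxn1, which repairs over-oxidised peroxiredoxins and is a classical NRF2 target, had 23.6, 33.5, 28.9 and 23.4 FPKM under vehicle and 19.6, 27.05, 21.2 and 17.9 FPKM under auranofin. Its log2 change was -0.34 (interval -0.68 to 0.00045), with 3 of the 4 auranofin libraries below every vehicle library. Nqo1, a quinone reductase under NRF2, gave -0.17 (SE 0.15), and the glutathione synthesis gene Gclc gave -0.37 (SE 0.19). Heme oxygenase Hmox1 gave -0.035 (SE 0.17), with an interval of -0.43 to 0.36. An upward change of 1 on the log2 scale lay outside the intervals of Txnrd1, Nqo1, Srxn1, Gclc and Hmox1.

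Several metal- and stress-responsive genes varied widely between libraries of the same group. Metallothionein Mt1 had 10.2, 13.9, 114 and 30.6 FPKM under vehicle and 27.7, 29.7, 35.5 and 40.1 FPKM under auranofin, so that vehicle replicate 3 was the highest of all 8 and the interval ran from -1.13 to 1.69. Mt2 was listed at 0 in 6 of the 8 libraries and did not pass the filter. Fgf21, a hormone that hepatocytes secrete under metabolic stress, gave 0.25 (SE 0.33), and Gdf15, another stress hormone, gave -0.47 (SE 0.51). Their 95% intervals were -0.49 to 0.99 and -1.64 to 0.69. Lepr, the leptin receptor, was below the filter, with 0.235, 0.261, 0.600 and 0.480 FPKM under vehicle and 0.709, 0.546, 0.470 and 0.664 FPKM under auranofin, and was not tested. The hepatic iron hormone Hamp stood at 1240.2, 1655, 1565 and 2231 FPKM under vehicle and 1481, 2813, 2328 and 4369 FPKM under auranofin, with a log2 change of 0.64 (SE 0.31) and overlapping groups. Slc39a4, a zinc importer, had 8.83, 10.1, 14.1 and 10.5 FPKM against 14.3, 16.97, 16.5 and 12.99 FPKM.

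Most thioredoxin-system and selenoprotein genes had slightly lower values under auranofin. Of 42 listed genes 41 were tested, and 33 had a log2 change below 0, against 52.3% of all genes. The median was -0.076, beside -0.0080 over all genes and -0.055 over genes of 100 FPKM or more. At an unadjusted p under 0.05, 7 members were lower and 1 higher, against 3.54% and 2.50% of all genes, and none passed. Dio1, the selenoenzyme that converts thyroxine to the active hormone in liver, lies on chr4:107291465-107307169 and stood at 132, 157, 115 and 116 FPKM under vehicle and 85.2, 100.4, 93.5 and 77.6 FPKM under auranofin. All auranofin values were below all vehicle values, the means being 130.4 ± 19.6 FPKM under vehicle and 89.2 ± 9.89 FPKM under auranofin (SD, n = 4 each), and the log2 change was -0.54 (SE 0.12) with a limma p of 0.00161 and an adjusted p of 0.789. Selenop, the plasma selenium carrier made by hepatocytes, stood at 1986, 1970.2, 1784 and 2270.5 FPKM and 1681, 1754, 1617 and 1624 FPKM, again without overlap, with a log2 change of -0.26 (SE 0.097). Selenoh, a nuclear selenoprotein, had 10.2, 11.4, 8.06 and 8.17 FPKM and 6.67, 7.72, 7.54 and 5.54 FPKM, with a change of -0.41 (SE 0.13). The member that differed the other way was Selenom, an endoplasmic reticulum selenoprotein, with 1.48, 2.01, 1.59 and 1.54 FPKM under vehicle and 2.31, 2.71, 2.81 and 2.73 FPKM under auranofin and a change of 0.46 (SE 0.093). The other members with an unadjusted p under 0.05 were lower under auranofin, with overlapping groups: the methionine sulfoxide reductases Msra (-0.25) and Msrb1 (-0.24), the mitochondrial peroxiredoxin Prdx3 (-0.29) and the glutaredoxin Glrx5 (-0.35).

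NRF2 targets as a group were not higher under auranofin. Of 42 listed genes 40 were tested, 31 had a log2 change below 0, against 52.3% of all genes, and the median was -0.14, between -0.18 and -0.078 over the alternatives tried. Genes of 10 to 100 FPKM and of 100 FPKM or more had medians of -0.041 and -0.055. The members with an unadjusted p under 0.05 numbered 4, all lower, against 3.54% of all genes. Gstm4, a glutathione S-transferase, stood at 55.3, 67.1, 65.3 and 51.9 FPKM under vehicle and 40.2, 51.3, 49.3 and 47.6 FPKM under auranofin, and Entpd5, an endoplasmic reticulum nucleotidase, at 71.01, 96.2, 74.7 and 74.9 FPKM and 62.4, 69.96, 60.9 and 54.2 FPKM. Neither overlapped between groups, and their log2 changes were -0.34 and -0.35. The others were the glucuronosyltransferase Ugt2b35 (-0.34) and the epoxide hydrolase Ephx1 (-0.31).

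Protein-damage responses showed no member or few members at an unadjusted p under 0.05. Of 20 heat-shock genes tested, none reached it, 16 had a change below 0, against 52.3% of all genes, and the median was -0.11. Of 37 genes that answer unfolded proteins or amino acid shortage, 1 reached it, against 6.04% of all genes in either direction. This was Nupr1, a stress-induced chromatin protein, with 0.630, 1.15, 1.65 and 1.89 FPKM under vehicle and 2.65, 1.75, 1.996 and 2.68 FPKM under auranofin. Chac1, a glutathione-degrading enzyme downstream of ATF4, gave -0.44 (SE 0.27) in the other direction.

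The p53 targets gave 4 members with an unadjusted p under 0.05 among 11 tested, all lower, against 3.54% of all genes, and a list median of -0.22. Ccng1, the cyclin G1 gene, stood at 16.2, 18.7, 18.6 and 19.6 FPKM under vehicle and 14.8, 14.9, 14.2 and 12.7 FPKM under auranofin, with no overlap and a log2 change of -0.35 (SE 0.083). Aen, an apoptosis-enhancing nuclease, stood at 4.76, 4.76, 5.33 and 4.57 FPKM and 3.61, 4.02, 3.04 and 3.33 FPKM, with a change of -0.38 (SE 0.088). Phlda3, an inhibitor of AKT, also did not overlap, but vehicle replicate 2 with 4.38 FPKM stood far above the other vehicle libraries at 1.89 to 2.04 FPKM. Cdkn1a, the cell-cycle inhibitor p21, varied widely within both groups and stood at 9.44, 21.98, 44.2 and 27.3 FPKM under vehicle and 13.5, 34.9, 8.93 and 10.7 FPKM under auranofin, and Mdm2, the p53 ubiquitin ligase, was steady across libraries and gave -0.074 (SE 0.069).

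Most lipid-burning genes had slightly lower values under auranofin. All 44 listed genes of fatty acid oxidation and of PPAR-alpha, the fatty acid receptor that drives their transcription in liver, were tested, and 34 had a log2 change below 0, against 52.3% of all genes. The median was -0.16, between -0.19 and -0.10 over the alternatives, against -0.055 for genes of 100 FPKM or more. At an unadjusted p under 0.05, 10 members were lower and 0 higher, against 3.54% and 2.50% of all genes. For 6 members every auranofin value was below every vehicle value, against 2.20% of all genes. Plin2, a lipid droplet coat protein and PPAR-alpha target on chr4:86648386-86670060, stood at 339.8, 395, 352 and 381 FPKM under vehicle and 204, 275, 310.1 and 214 FPKM under auranofin. The means were 367 ± 25.5 FPKM under vehicle and 251 ± 50.3 FPKM under auranofin (SD, n = 4 each), and the log2 change was -0.57 (SE 0.14) with a limma p of 0.00265 and an adjusted p of 0.790. Vnn1, a pantetheinase that marks PPAR-alpha activity, had 75.9, 94.5, 77.98 and 77.3 FPKM against 61.4, 69.1, 74.2 and 57.3 FPKM, with a change of -0.31 (SE 0.11). The trifunctional protein of mitochondrial beta-oxidation showed small differences in both subunits: Hadha had 77.2, 79.5, 72.9 and 78.1 FPKM against 67.1, 72.5, 69.7 and 65.4 FPKM, and Hadhb 49.4, 53.3, 44.04 and 50.2 FPKM against 40.4, 43.1, 43.7 and 43.4 FPKM. Bdh1, an enzyme of ketone body metabolism, had 147, 161, 146 and 151 FPKM against 118, 131, 144 and 111 FPKM. Apart from Plin2, the members whose groups did not overlap had log2 changes of -0.31 to -0.16. Cpt1a, the gate of fatty acids into mitochondria, gave -0.22 (SE 0.13) with overlapping groups. The 10 members with a change above 0 included the PPAR-alpha targets Cyp4a14 (0.097), Cyp4a32 (0.30), Angptl4 (0.13) and Fgf21 (0.25). Their groups overlapped, as did those of Cyp4a10 (-0.11).

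Several lipid droplet genes varied widely between the libraries of each group. Of 21 genes tested 16 had a change below 0, against 52.3% of all genes, and the median was -0.13. Lower at an unadjusted p under 0.05 were 2 members, Plin2 and the monoacylglycerol lipase Mgll, against 3.54% of all genes. Mgll stood at 83.4, 90.2, 60.5 and 63.6 FPKM under vehicle and 45.7, 54.1, 57.6 and 57.2 FPKM under auranofin, without overlap. Cidea and Cidec, droplet fusion proteins that accumulate in fatty liver, spanned the widest range. Cidea stood at 2.91, 92.1, 24.96 and 7.93 FPKM under vehicle and at 8.89, 40.96, 9.27 and 0.272 FPKM under auranofin, and Cidec at 11.8, 59.5, 48.7 and 19.7 FPKM and 18.1, 46.1, 22.8 and 7.05 FPKM. Vehicle replicate 2 was the highest and auranofin replicate 4 the lowest for both genes, and auranofin replicate 2 lay above 3 vehicle libraries for Cidea and above 2 for Cidec. Mogat1, a monoacylglycerol acyltransferase of fatty liver, was likewise highest in vehicle replicate 2 (7.30 FPKM) and lowest in auranofin replicate 4 (0.967 FPKM). The same libraries form the ends of the first principal component. Pnpla2, the main triglyceride lipase, gave 0.041 (SE 0.15), and Plin5 gave 0.085 (SE 0.18).

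The list medians of fat synthesis, cholesterol synthesis and glucose metabolism took either sign over the alternatives. For 26 lipogenic and triglyceride synthesis genes the median was -0.036 (-0.16 to 0.059 over the alternatives, the highest without auranofin replicate 4). Against 3.54% of all genes, 3 members were lower at an unadjusted p under 0.05: Pklr, the liver pyruvate kinase (-0.33), Insig2, which holds SREBP in the endoplasmic reticulum (-0.61), and Tkfc, a fructose pathway kinase (-0.25). For 25 genes of cholesterol synthesis and LDL uptake 0 members reached that level. Their median was 0.074, ranging from -0.021 without auranofin replicate 3 to 0.26 without auranofin replicate 4. Sqle, squalene epoxidase, stood at 6.75, 11.6, 12.6 and 13.2 FPKM under vehicle and 19.9, 12.4, 21.4 and 11.2 FPKM under auranofin. For 29 genes of glucose metabolism and insulin signalling the median was -0.020 (-0.084 to 0.028 over the alternatives). The 3 members at that level, against 3.54% of all genes, were lower: Pklr again, the gluconeogenic enzyme Fbp1 (-0.30) and the liver glycogen phosphorylase Pygl (-0.20).

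Lipoprotein genes differed by member rather than as a list, whose median over 27 genes was -0.029. Apoc2, the activator of lipoprotein lipase, stood at 8.71, 6.88, 8.91 and 6.86 FPKM under vehicle and 8.95, 11.2, 14.2 and 12.1 FPKM under auranofin, without overlap and with a log2 change of 0.51 (SE 0.14). Mttp, which loads triglyceride onto nascent lipoproteins, stood at 68.1, 75.4, 66.9 and 73.6 FPKM and 60.2, 65.6, 57.3 and 60.3 FPKM, also without overlap, with a change of -0.22 (SE 0.073). Apoa4, an apolipoprotein known to go up with hepatic fat, stood at 257, 540.3, 195 and 197 FPKM and 75.6, 236, 146 and 96.8 FPKM, with a change of -1.09 (SE 0.41) and overlapping groups. Apob, the structural protein of very low density lipoprotein, had 384, 412, 385 and 443 FPKM against 358, 373, 333 and 369 FPKM, a change of -0.18 (SE 0.080).

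Drug metabolism and zonation were close to even. Of 30 drug metabolism genes tested, 2 were higher at an unadjusted p under 0.05, against 2.50% of all genes. Fmo2, a flavin-containing monooxygenase, stood at 1.75, 2.10, 2.54 and 2.33 FPKM under vehicle and 3.69, 3.66, 3.48 and 4.52 FPKM under auranofin, with a log2 change of 0.61 (SE 0.11), a limma p of 0.000271 and an adjusted p of 0.509. Cyp1a2, a pericentral cytochrome P450 under the aryl hydrocarbon receptor, stood at 262, 263, 256 and 230.2 FPKM and 341, 281, 460.2 and 283 FPKM, with auranofin replicate 3 the highest. Neither gene overlapped between groups. The medians of 13 pericentral and 9 periportal genes were -0.0077 and 0.10. Among genes that depend on growth hormone, Cyp4a12a, a fatty acid hydroxylase with higher levels in male liver, stood at 74.97, 71.3, 43.3 and 77.4 FPKM under vehicle and 22.5, 50.2, 27.7 and 44.4 FPKM under auranofin, with a change of -0.90 (SE 0.27); its reads cannot be fully parted from those of near-identical Cyp4a genes. Cyp4a12a had the lowest change of 22 male-biased genes tested, which ran from -0.90 to 0.82 with a median of -0.034. Of these 11 had a change above 0 and 11 below, against 47.7% and 52.3% of all genes. At an unadjusted p under 0.05, 1 was lower and 0 higher, against 3.54% and 2.50% of all genes. Of 12 genes of the growth hormone axis 8 had a change below 0, against 52.3% of all genes, with a median of -0.077. Against 2.50% and 3.54% of all genes, 1 was higher and 1 lower at an unadjusted p under 0.05. These were Igfbp2, a secreted binding protein for insulin-like growth factors, with 0.60 (SE 0.21), and Stat5a, a transcription factor downstream of the growth hormone receptor, with -0.28 (SE 0.11).

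Interferon-stimulated genes gave the largest share of members without overlap among lists with more than 20 members tested. Of 39 listed genes 37 were tested, 29 had a log2 change below 0, against 52.3% of all genes, and the median was -0.22, between -0.26 and -0.12 over the alternatives. At an unadjusted p under 0.05, 10 were lower and 1 higher, against 3.54% and 2.50% of all genes, and for 8 members every auranofin value was below every vehicle value, against 2.20% of all genes. None passed. Type I interferon drives most of these genes through a transcription factor complex that binds an interferon-stimulated response element upstream of their start sites. Mean list levels were 2.84, 2.82, 2.72 and 2.63 on the log2 scale in vehicle replicates 1 to 4 and 2.55, 2.52, 2.56 and 2.66 in auranofin replicates 1 to 4. Auranofin replicate 4 lay above vehicle replicate 4, so the list means overlapped by those libraries.

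To show the element beside the genes, the 250 bases before the start site of genes were searched for GAAANNGAAA on both strands, with the sequences of RefSeq for build GRCm38.p6. Of 27025 genes with a sequence, 3.46% held a match, and of the 28 list members with a sequence 15 (53.6%) did. The members lower without overlap included 6 with a sequence, of which 2 held a match. They are printed 5′ to 3′ along the gene's strand, the first from the minus strand of chr12:26456453-26456702 and the second from the minus strand of chr11:48871421-48871670, with matches in capitals.
Rsad2: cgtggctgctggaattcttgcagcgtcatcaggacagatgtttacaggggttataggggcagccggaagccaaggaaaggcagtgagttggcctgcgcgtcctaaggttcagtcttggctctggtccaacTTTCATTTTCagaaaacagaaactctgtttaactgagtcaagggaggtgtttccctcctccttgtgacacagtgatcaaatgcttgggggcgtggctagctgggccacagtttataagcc
Irgm1: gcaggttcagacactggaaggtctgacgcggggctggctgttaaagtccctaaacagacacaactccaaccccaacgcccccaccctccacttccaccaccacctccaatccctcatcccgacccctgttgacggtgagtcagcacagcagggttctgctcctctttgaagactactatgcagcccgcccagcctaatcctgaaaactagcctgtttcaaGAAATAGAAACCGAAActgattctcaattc
In Rsad2 the match begins 120 bases before the start site and lies on the opposite strand. In Irgm1 a pair of overlapping matches begin 30 and 24 bases before it. Ifih1, Irf9, Tap1 and Xaf1 held no match to these letters in the window searched. A match is only a match of letters, and binding was not measured.

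The 8 members without overlap included effectors and regulators of the response. Rsad2, the antiviral enzyme viperin on chr12:26442746-26456452, stood at 2.47, 2.10, 2.33 and 1.81 FPKM under vehicle and 1.11, 1.57, 1.03 and 0.713 FPKM under auranofin, and the lowest vehicle value was above the highest auranofin value. The log2 change was -0.60 (SE 0.13), with a limma p of 0.00137 and an adjusted p of 0.789. Irgm1, an immunity-related GTPase, stood at 13.8, 11.5, 10.2 and 10.7 FPKM and 9.28, 9.96, 9.31 and 9.02 FPKM, with a change of -0.26 (SE 0.095). Usp18, which removes ISG15 from proteins and damps the interferon receptor, stood at 4.05, 4.73, 3.82 and 3.34 FPKM and 3.05, 2.84, 2.48 and 2.59 FPKM, with a change of -0.41 (SE 0.10). Irf9, the DNA-binding subunit of the complex, had 11.6, 10.6, 10.3 and 10.6 FPKM against 8.57, 8.78, 7.38 and 9.98 FPKM. Ifih1, the RNA sensor MDA5, had 5.07, 4.35, 3.88 and 4.32 FPKM against 3.44, 3.82, 3.79 and 3.48 FPKM. Tap1, the peptide transporter of antigen presentation, had 8.27, 8.59, 8.05 and 8.73 FPKM against 6.12, 5.76, 7.44 and 5.79 FPKM, with a change of -0.38 (SE 0.086). Gbp6 and Xaf1 completed the 8, with changes of -0.32 and -0.27.

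Other interferon genes overlapped between groups. Isg15, the ubiquitin-like modifier, had 20.8, 15.5, 15.4 and 12.1 FPKM against 11.7, 12.3, 14.4 and 10.1 FPKM, and Oasl1 6.01, 4.63, 5.37 and 3.997 FPKM against 2.96, 4.70, 3.45 and 3.74 FPKM. Gbp2, a guanylate-binding protein, was the member that differed the other way, with 1.98, 2.02, 2.17 and 1.96 FPKM under vehicle and 2.79, 2.45, 2.11 and 2.99 FPKM under auranofin. Ifit3b, which is outside the list, stood at 1.43, 1.62, 1.71 and 1.69 FPKM and 0.658, 1.002, 0.521 and 0.634 FPKM, but its reads cannot be fully parted from those of its near-identical copy Ifit3.

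Kupffer cell markers, the genes of the resident macrophages of liver, had higher values under auranofin. All 17 listed genes were tested and all 17 had a log2 change above 0, against 47.7% of all genes, with a median of 0.42 that lay between 0.32 and 0.55 over the alternatives. At an unadjusted p under 0.05, 6 were higher, against 2.50% of all genes, and none passed. For 1, Cd68, every auranofin value was above every vehicle value, which 1.52% of all genes also showed. The genes are markers of 1 cell type in the same libraries and so are not independent of each other. Cd68, a lysosomal protein of macrophages on chr11:69664213-69666153, stood at 4.56, 4.73, 6.22 and 6.04 FPKM under vehicle and 7.40, 6.63, 9.79 and 8.07 FPKM under auranofin, means of 5.39 ± 0.862 FPKM under vehicle and 7.97 ± 1.35 FPKM under auranofin (SD, n = 4 each). Its log2 change was 0.49 (SE 0.13), with a limma p of 0.00466 and an adjusted p of 0.790. Csf1r, the receptor on which macrophages depend for survival, had 7.51, 6.12, 10.3 and 7.08 FPKM against 11.9, 8.74, 12.6 and 14.1 FPKM. Clec4f, a lectin restricted to Kupffer cells, stood at 42.4, 29.1, 54.05 and 38.3 FPKM and 54.5, 38.2, 61.2 and 71.9 FPKM, and Timd4, a receptor of long-resident Kupffer cells, at 2.29, 1.33, 2.996 and 1.09 FPKM and 2.91, 1.95, 5.10 and 4.05 FPKM. Adgre1, the gene of the F4/80 antigen, had 2.56, 2.73, 4.55 and 2.96 FPKM against 4.79, 3.34, 3.92 and 4.92 FPKM, a change of 0.33 (SE 0.16).

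The libraries did not contribute evenly to this pattern. The mean list level was 3.57, 3.43, 4.00 and 3.49 on the log2 scale in vehicle replicates 1 to 4 and 4.01, 3.63, 4.29 and 4.29 in auranofin replicates 1 to 4. Vehicle replicate 3 was close to auranofin replicate 1, and auranofin replicate 2 was within the vehicle range. The largest member change, that of the scavenger receptor Marco, came from 2 libraries: Marco stood at 3.56, 2.91, 7.44 and 3.70 FPKM under vehicle and 7.38, 2.91, 32.9 and 18.9 FPKM under auranofin. The summed level of the 17 genes was 265.7 to 405 FPKM under vehicle and 305 to 497 FPKM under auranofin. In bulk tissue more cells of a type and more RNA per cell cannot be told apart. The markers of recruited and lipid-associated macrophages gave a smaller difference: 7 of 15 were tested, Trem2 and Gpnmb were below the filter, and the median was 0.10.

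**Figure D2:**
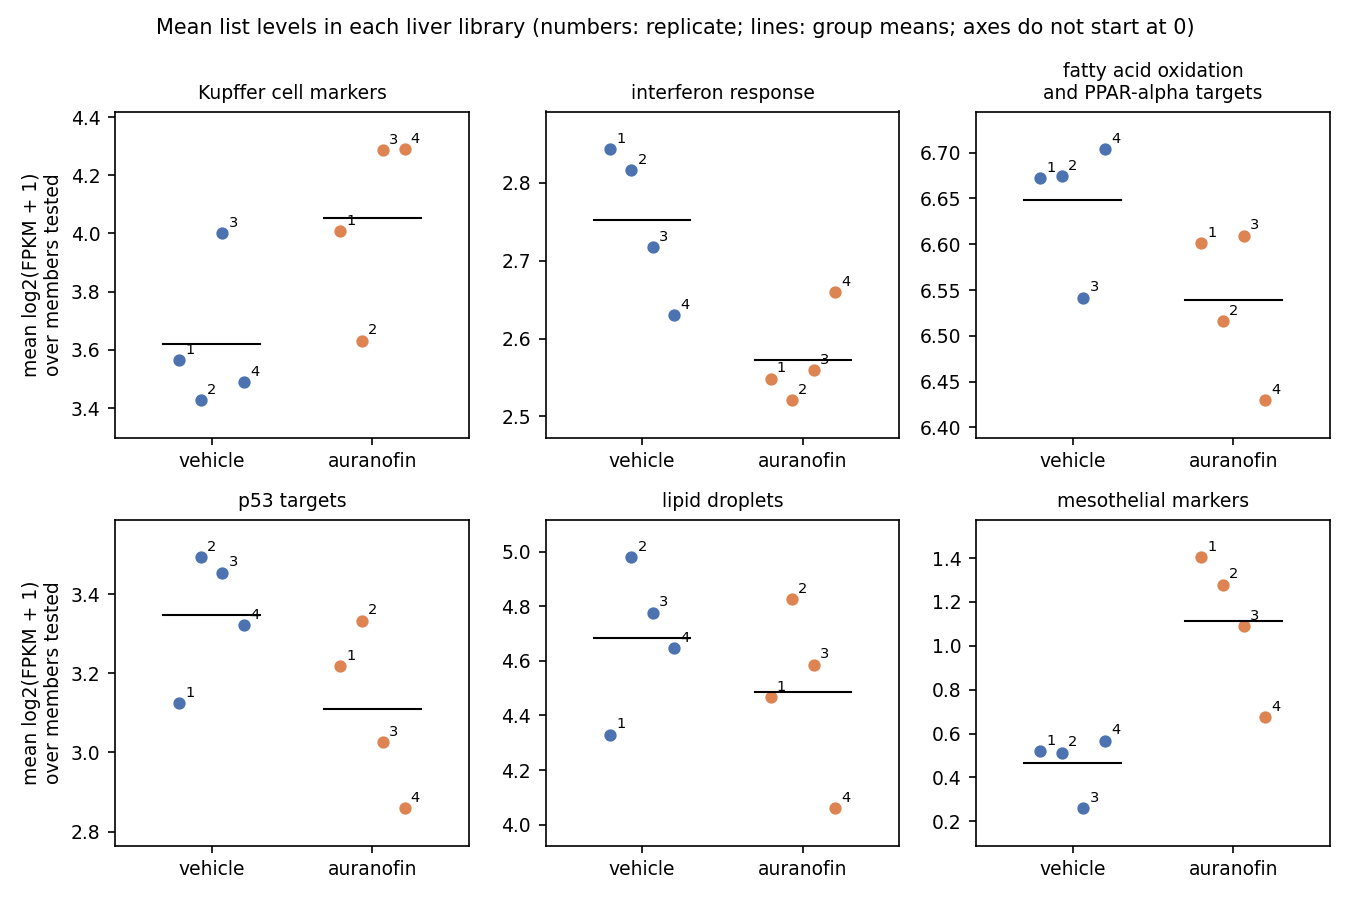
Each panel gives the mean log2(FPKM + 1) of the tested members of 1 list in each liver library, with the replicate number beside the point and a line at the group mean; the vertical axes do not start at 0. Kupffer markers lie at 3.43 to 4.00 under vehicle and 3.63 to 4.29 under auranofin, interferon genes at 2.63 to 2.84 and 2.52 to 2.66, and 5 of the 6 lists overlap between groups.

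Markers of other cells were also compared. Of 23 sinusoidal endothelial markers 18 had a change above 0, against 47.7% of all genes, with a median of 0.11 and 0 at an unadjusted p under 0.05. Stellate cell markers had a median of 0.049 over 15 genes, and hepatocyte markers one of 0.058 over 15 genes. Alb itself gave 0.11 (SE 0.17). All 6 red blood cell markers tested had a change below 0, against 52.3% of all genes, with a median of -0.21 and 0 at an unadjusted p under 0.05. That median ranged from -0.40 to 0.030 over the alternatives and was above 0 without vehicle replicate 3, the library with the highest globin levels. Their summed level was 314 to 1117 FPKM under vehicle and 306 to 674 FPKM under auranofin. Of 10 B cell markers tested 7 had a change above 0 and 3 below, against 47.7% and 52.3% of all genes, with a median of 0.19 and a range from -0.99 to 0.65. The 1 member with an unadjusted p under 0.05, against 2.50% of all genes, was Igkc, higher and with overlapping groups. Igkc, an immunoglobulin light chain of B and plasma cells, stood at 30.7, 23.3, 21.4 and 22.00 FPKM under vehicle and 27.04, 27.7, 50.7 and 56.5 FPKM under auranofin, its highest values being in the libraries with the highest Marco levels. The T and NK cell, B cell, neutrophil and dendritic cell lists had only 3 to 10 members above the filter.

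Genes of the mesothelium, the sheet that covers the liver and other abdominal organs, gave the list with the highest median, 0.78, from 3 tested genes of 8. This median ranged from 0.23 to 1.95 with the pseudocount and the test, and genes this low pass the filter through the group in which they are higher, so the count is no support. Upk3b, a uroplakin of mesothelial cells, stood at 0.363, 0.0743, 0.115 and 0.570 FPKM under vehicle and 1.54, 1.41, 0.966 and 0.853 FPKM under auranofin, which stand for 17, 3, 5 and 22 and 62, 62, 36 and 38 reads. Msln, mesothelin, stood at 0.499, 0.662, 0.0770 and 0.346 FPKM and 2.20, 1.29, 1.88 and 0.525 FPKM. Igfbp6, a secreted binding protein for insulin-like growth factor 2, stood at 0.678, 1.42, 0 and 0.576 FPKM under vehicle and 2.84, 3.24, 2.55 and 1.64 FPKM under auranofin, and its auranofin values were all above its vehicle values. The summed level of the 8 mesothelial genes, of which Upk3b and Msln are members, was 0.863 to 2.11 FPKM under vehicle and 2.54 to 6.20 FPKM under auranofin. The part of surface tissue in the level of Igfbp6 was not tested. Krt19, a keratin of bile duct and mesothelial cells, likewise had 1.06, 0.424, 1.14 and 0.838 FPKM against 2.79, 2.16, 1.17 and 1.28 FPKM.

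**Figure D3:**
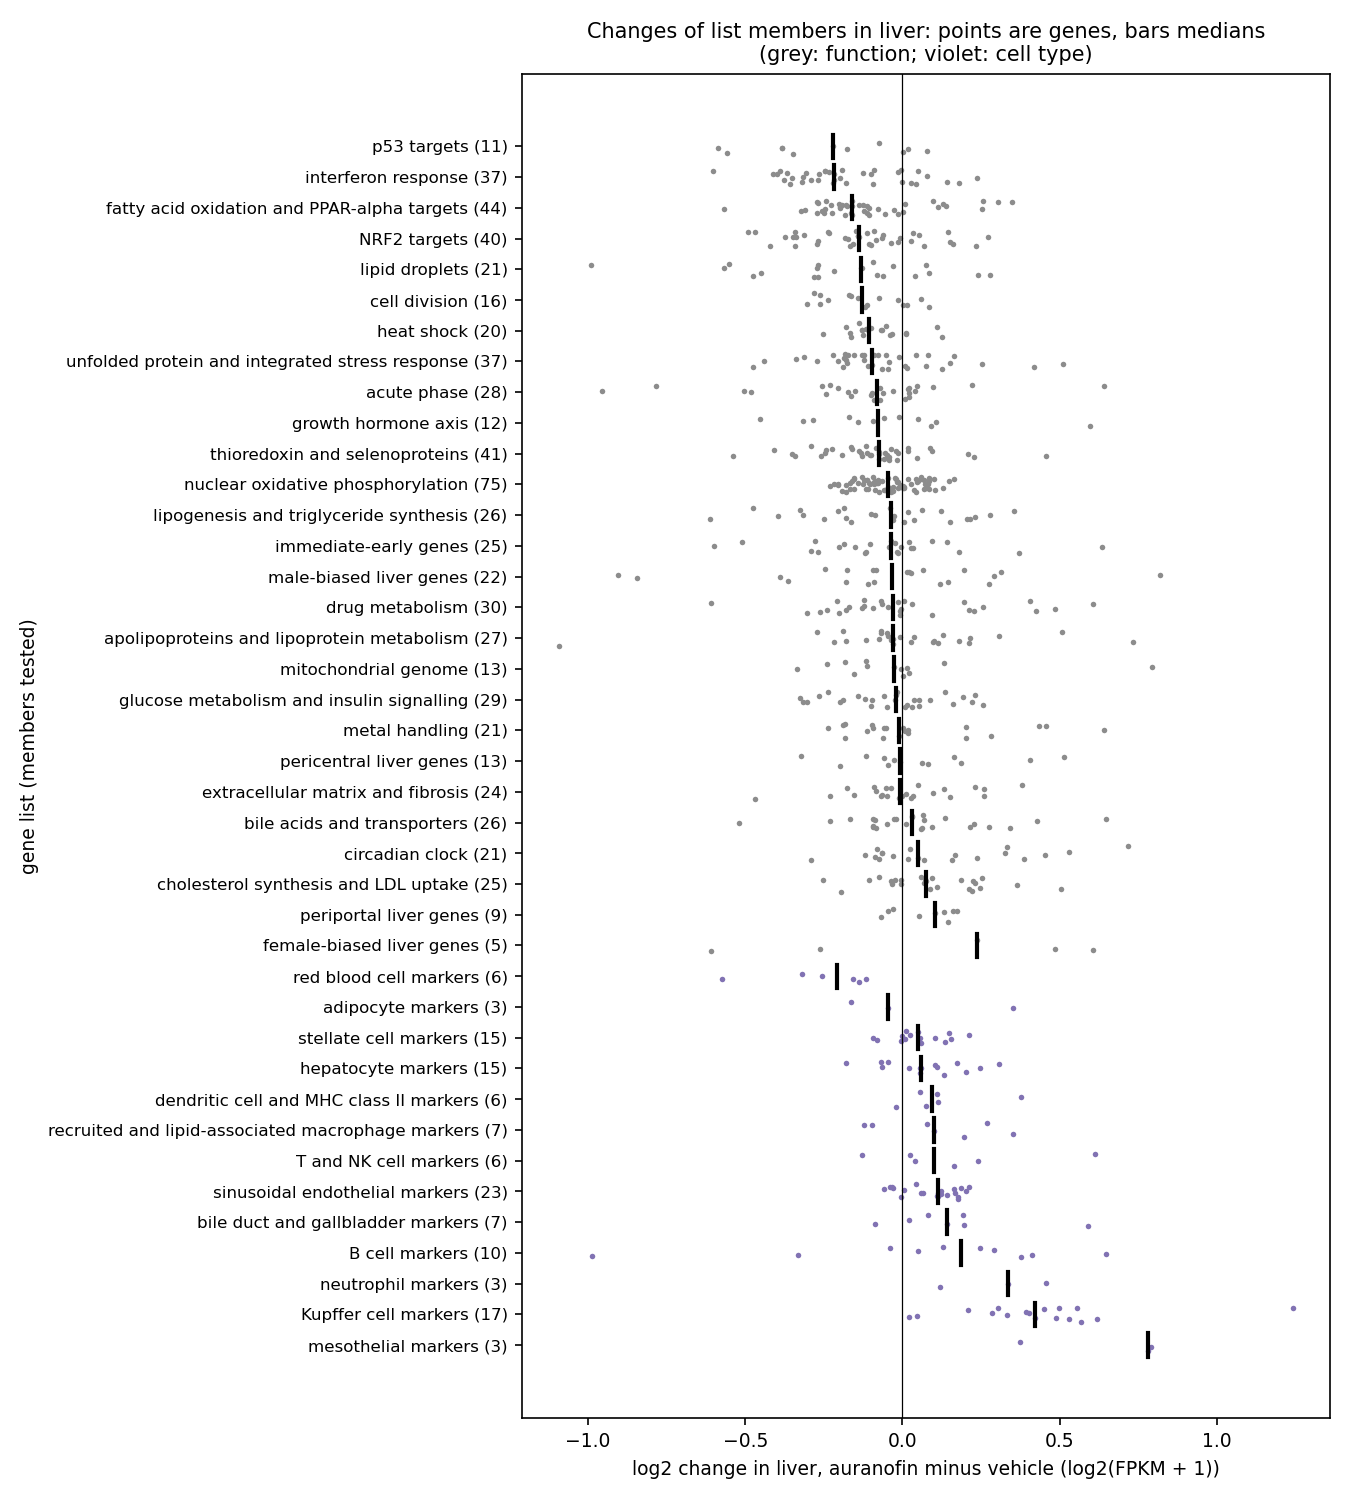
Log2 changes (auranofin minus vehicle) of the tested members of each list with at least 3 members tested, as points, with black bars at the medians; grey lists are functions and violet lists cell types, and the number of members tested is in brackets. Medians run from -0.22 for p53 targets to 0.78 for mesothelial markers, and most lists straddle 0.

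Among all protein-coding genes without overlap between groups, the 12 with the smallest p had log2 changes of -0.64 to -0.36 on the lower side and of 0.28 to 1.17 on the higher side. Lpgat1, an acyltransferase of lysophospholipids on chr1:191717834-191784255 (mm10), had the smallest p on the lower side. It stood at 30.5, 28.9, 32.4 and 30.96 FPKM under vehicle and 22.6, 23.7, 23.8 and 23.2 FPKM under auranofin, means of 30.7 ± 1.46 FPKM under vehicle and 23.3 ± 0.562 FPKM under auranofin (SD, n = 4 each), with a log2 change of -0.38 (SE 0.064), a limma p of 0.000201 and an adjusted p of 0.509. Dglucy, a mitochondrial enzyme that degrades D-glutamate, stood at 14.5, 18.5, 14.4 and 15.2 FPKM and 10.97, 11.4, 11.6 and 9.21 FPKM. Hist1h1c, a linker histone, stood at 64.4, 74.9, 65.00 and 84.2 FPKM and 48.2, 50.1, 50.7 and 35.7 FPKM, auranofin replicate 4 being the lowest. Qsox1, a sulfhydryl oxidase that forms disulfides in secreted proteins, had 61.7, 50.7, 54.4 and 50.9 FPKM against 35.4, 41.3, 38.8 and 44.1 FPKM. The remaining lower genes not yet given were B4gat1 (-0.36), Paqr9 (-0.42) and Rtn4ip1 (-0.39).

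On the higher side, Ppl, the cytolinker periplakin, stood at 3.54, 3.77, 4.10 and 3.21 FPKM under vehicle and 5.28, 4.998, 6.84 and 5.95 FPKM under auranofin, with a log2 change of 0.54 (SE 0.10). Arhgap45, a GTPase-activating protein of blood cells, had 3.15, 3.40, 3.76 and 3.96 FPKM against 5.84, 4.28, 5.498 and 6.34 FPKM, beside the Kupffer marker levels given above. Kcnj8, a potassium channel subunit of vascular mural cells, had 0.769, 1.37, 1.25 and 1.51 FPKM against 1.996, 1.82, 2.34 and 2.36 FPKM. Gm10130, a predicted gene, rested on 1, 0, 2 and 0 reads under vehicle and 8, 7, 4 and 5 reads under auranofin. Others on this side were Lmntd2 (0.49), Dnase1l2 (0.44) and Morc2a (0.28).

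**Figure D4:**
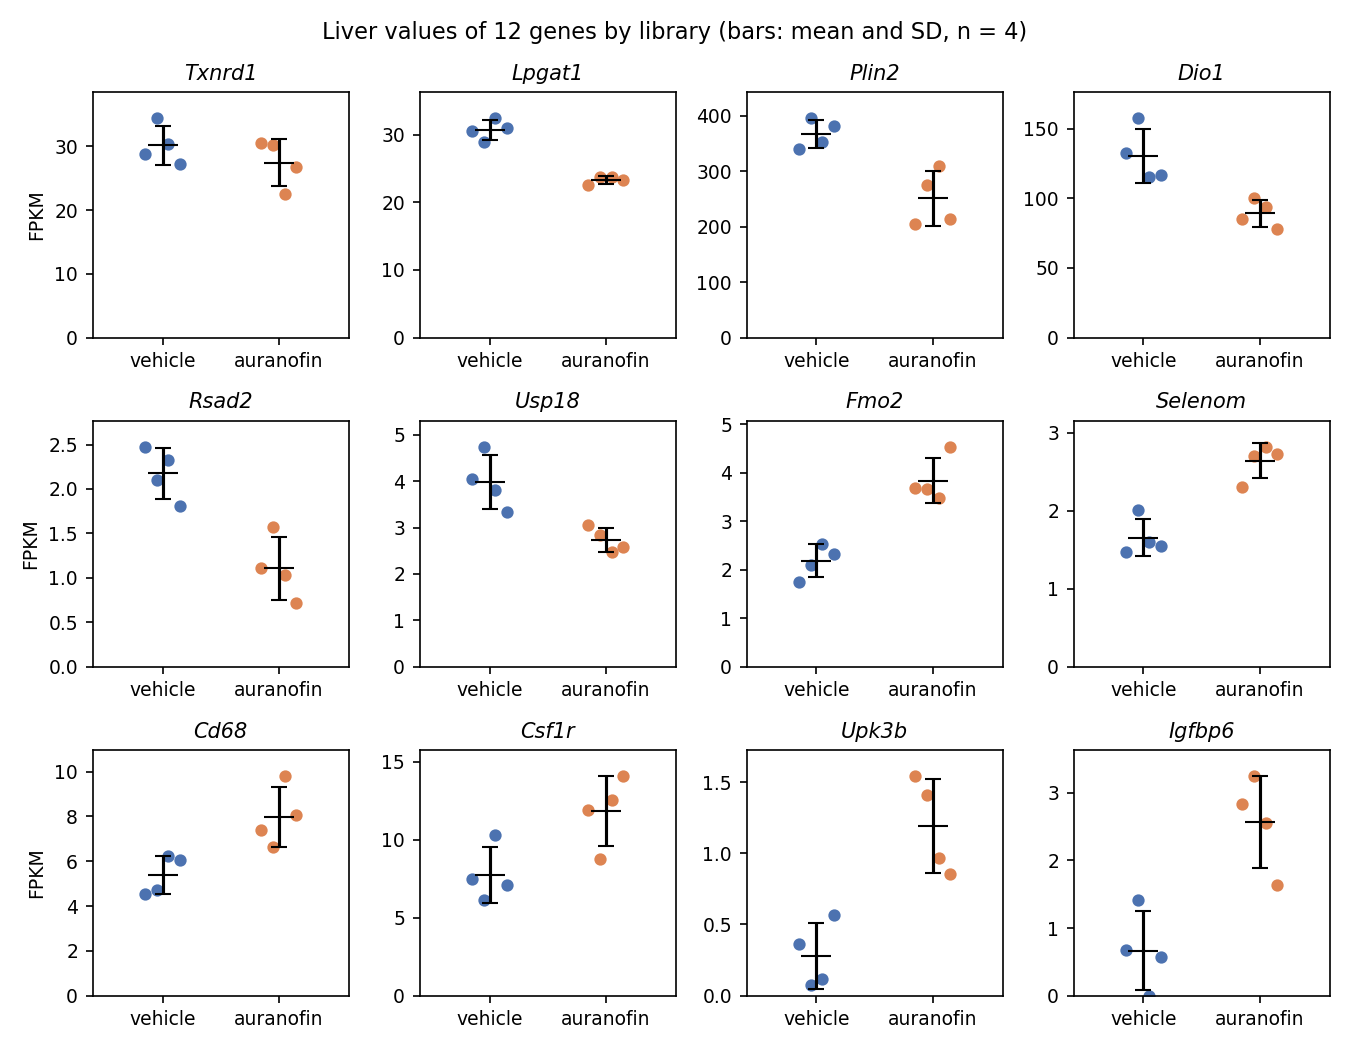
FPKM of 12 genes in each of the 8 liver libraries (points), with the mean and SD of each group (n = 4) as bars; each vertical axis starts at 0. Txnrd1 overlaps between groups at 22.5 to 34.4 FPKM, whereas Lpgat1 lies at 28.9 to 32.4 FPKM under vehicle and 22.6 to 23.8 FPKM under auranofin.

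Mitochondrial transcripts gave 1 pattern that was seen in 2 libraries. None of the 75 nuclear genes of oxidative phosphorylation had an unadjusted p under 0.05, and their median was -0.045, near that of all genes of 100 FPKM or more. Of the 13 protein genes of the mitochondrial genome none had one either, with a median of -0.028. Within that list mt-Co3, a subunit of cytochrome c oxidase, stood at 115, 90.9, 92.5 and 99.7 FPKM under vehicle and at 354, 83.6, 357 and 83.4 FPKM under auranofin. Auranofin replicates 1 and 3 were thus more than 3 times as high as each of the other 6 libraries, while auranofin replicates 2 and 4 were below all vehicle libraries. No other of the 13 genes showed this pattern: mt-Co1 stood at 15547, 16246, 15552 and 15316 FPKM and 14656, 14348, 15385 and 13472 FPKM, and mt-Co2 at 125, 108, 125 and 96.6 FPKM and 81.7, 86.1, 138 and 85.9 FPKM. The nuclear genome holds copies of mitochondrial sequence, and how reads with several matches were counted is not given in the sources used here.

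Acute-phase, clock, division and matrix genes completed the functional lists. Of 28 acute-phase genes none had an unadjusted p under 0.05, and the median was -0.080. Saa1, a serum amyloid whose reads cannot be fully parted from those of Saa2, stood at 32.2, 28.7, 63.8 and 10.6 FPKM under vehicle and 13.6, 16.8, 13.5 and 12.9 FPKM under auranofin, so that the auranofin values lay close together within the vehicle range. Clock genes had a median of 0.048 over 21 genes with 1 member, Usp2, higher at an unadjusted p under 0.05, against 2.50% of all genes. Of 16 cell division genes tested the replication helicase genes Mcm4 (-0.30) and Mcm2 (-0.28) were lower at that level, against 3.54% of all genes. Of 24 matrix and fibrosis genes 2 were higher, Vim (0.38) and Tgfb1 (0.26), and 1 lower, the basement membrane collagen Col15a1 (-0.47), against 2.50% and 3.54% of all genes. Klf2, a flow-responsive transcription factor, was the 1 of 25 immediate-early genes tested that was higher without overlap, against 1.52% of all genes. It had 5.06, 6.49, 6.30 and 5.20 FPKM under vehicle and 8.36, 6.77, 6.61 and 9.36 FPKM under auranofin.

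Whether any liver change differed from that in fat was tested as an interaction, the change in liver minus the mean of the changes in the 3 fat depots. None of the 11409 genes expressed in both passed (limma adjusted p under 0.05, smallest 0.316). The change was higher in liver for 314 (2.75%) and lower for 319 (2.80%) at an unadjusted p under 0.05. Voom on the rebuilt reads also called 0. The members with the smallest interaction p were Gm10130 and Dglucy, whose interaction was -0.64 (SE 0.15) with a limma adjusted p of 0.316. For Txnrd1 the interaction was -0.027 (SE 0.12). It was 0.93 (SE 0.40) for Hmox1, 1.27 (SE 0.40) for Cd68 and -0.71 (SE 0.25) for Rsad2, with limma adjusted p of 0.884, 0.809 and 0.869. The Hmox1 value came from lower levels in fat under auranofin, not from a rise in liver. Its log2 change was -0.035 in liver and -0.59, -0.84 and -1.46 in inguinal, epididymal and brown fat. For Cd68 the liver change of 0.49 was smaller than the interaction, so its mean change over the 3 fat depots was below 0. Some named genes passed under alternatives: Apoc2 (limma adjusted p 0.0443) and Lmntd2 (0.00387) with no filter on low values, and Igfbp6 (0.0423) and Gm10130 (0.0423) with sample quality weights. In each the change was higher in liver than in fat, and the interaction does not compare levels. None passed in the main interaction test, and Lmntd2 was not tested there. Its group means in fat were only 0.0144 to 0.127 FPKM, below the filter.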

How the data were processed

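The deposited table gives FPKM for 54532 genes in 32 libraries, computed by the authors, and its values for liver were used as deposited. RNA was total RNA and the kit keeps no strand, per the labels' protocols, so reads of overlapping genes on opposite strands cannot be told apart, and near-identical copies are uncertain. Build mm10 and the tools CASAVA, DESeq2 1.20.0, featureCounts 1.5.0-p3 and STAR 2.6.1d appear in the submitters' processing notes, which give no roles. FPKM times gene length, divided by the smallest step of that product in each library, came out as whole reads, to within 0.1 read, for 100% of values, and these reads served for voom and the read numbers given. The steps stand for library sizes of 10559760 to 13267136 in liver.

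The 8 liver libraries had their own limma fit (limma 3.58.1, R 4.3.3) of log2(FPKM + 1), moderated along the mean level. It took genes with a mean of 0.5 FPKM or more, at a Benjamini-Hochberg adjusted p under 0.05. The script was tested on simulated data, in which the liver fit recovered 22 of 67 genes changed 1.5-fold and 44 of 63 changed 2-fold. It also recovered 55 of 61 changed 4-fold, and it called 11 unchanged genes. The interaction with fat used all 32 libraries. Replicate numbers entered no fit but 1 alternative. A group's 4 libraries limit every interval given, and intervals cover the spread between libraries only. No per-sample column was left out.

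The 42 gene lists hold 980 entries of 927 genes; 1 was not found in the table and 775 genes were tested. The rule for named genes takes 12 fixed genes, per direction the 12 protein-coding genes with the smallest p among those without overlap and with 1 FPKM or more in a group, and the 3 members of each list with the smallest p. Other list members are named where a count calls for them, and a few genes that the rule takes are not reported here. Members and lists were chosen with earlier results of these data known. Other pseudocounts, filters, scalings, weights, models, thresholds and the omission of each library were tried. Promoter sequences are those of RefSeq for GRCm38.p6. Python 3.11.15 and matplotlib 3.10.9 made the figures.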

Additional observations from a re-analysis of the deposited data

Results flagged for a closer look

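A single library stood far from the other 3 of its group in 16 of 286 gene groups and 1 of 84 list groups checked, by a test that flags about 1 group in 20 by chance. All values are FPKM unless stated.

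In vehicle replicate 2, Entpd5 was high at 96.2, Ugt2b35 at 76.0, Vnn1 at 94.5 and Phlda3 at 4.38, while Colec10 was low at 6.42 and Csf3r at 0.509. The mean log2 level of the bile duct and gallbladder markers was also low in this library, at 1.94. Other vehicle libraries held single genes: Trbc2 was low at 0.436 in replicate 1, Pklr was low at 113 and Cfd high at 25.7 in replicate 3, and Gadd45b was low at 1.90 in replicate 4. Under auranofin, Hist1h1c and Cps1 were low in replicate 4 at 35.7 and 406, Serpina1e and Trac were low in replicate 1 at 834 and 0.563, Saa1 was high in replicate 2 at 16.8, and mt-Co2 was high in replicate 3 at 138. Several of these genes were named above with their values in every library, and without vehicle replicate 2 the 4 high genes of that library kept a lower value under auranofin.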

How the results depend on the processing

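The count of 0 liver genes held under 15 of the 21 alternatives, among them voom, a pseudocount of 0.1, quantile normalisation, the TPM scale and protein-coding genes only. It became 1 with a pseudocount of 5 (Gm23354), with no filter (Gm10029), with sample quality weights (Gm23354) and at an adjusted p under 0.1 (Gm23354). Leaving out each library in turn gave 0 to 1, the 1 being Gm23354 without auranofin replicate 4, the library that held its only auranofin read. A single fit of all 32 libraries, which takes its spread from fat as well as liver, called 25 genes (9 higher, 16 lower), 10 of them protein-coding. Of the named genes it called Lmntd2 (limma adjusted p 0.00096), Cyp4a12a (0.0307) and Apoc2 (0.0136). The interaction count of 0 became 1 with a pseudocount of 5 (Gm4189), 31 with no filter (12 higher, 19 lower) and 19 with sample quality weights (9 higher, 10 lower), and leaving out each library gave 0 to 1, the 1 being Mppe1 without auranofin replicate 3. Apart from the models that take spread from elsewhere or test fewer libraries or more genes, the cause was not tested.

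With replicate number as a block, 0 genes passed in liver (smallest limma adjusted p 0.166) and 0 in the interaction. Same-numbered liver libraries had deviations correlated at 0.0188, 0.145, 0.0273 and 0.135, and differently numbered ones at -0.13 to 0.11. The highest values thus belonged to same-numbered libraries, but the labels state no pairing and the main fits used none. Whether same-numbered libraries of different tissues share an animal is not given and was not tested. The interaction fit treats them as independent.

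Of 143 named genes, 135 kept their direction under every alternative run. Alb, the highest gene in every library, had a change of 0 with quantile normalisation. The other 7 had overlapping groups and took either sign when libraries were left out in turn: Hmox1 ranged from -0.17 to 0.090, Mt1 from -0.16 to 0.96, Gls2 from -0.0021 to 0.19, Trbc1 from -0.079 to 0.37, S100a8 from -0.082 to 0.39, H2-Ab1 from -0.072 to 0.24 and Cfd from -0.62 to 0.72. Cfd was 0.35 with sample quality weights. Of the recomputed list medians 827 moved by less than the spread between libraries and 11 by more. The interferon median was -0.12 with a pseudocount of 5. The mesothelial median was 1.69, 0.23 and 1.95 with pseudocounts of 0.1 and 5 and with voom. The medians of 18 of the 42 lists took either sign over the alternatives. The others that moved were lists of cell types of which 1 to 10 members were tested.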

Other observations

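Serpina1e, an alpha-1-antitrypsin copy with higher levels in male liver, varied widely between libraries. It stood at 384, 281, 778 and 1669 FPKM in vehicle replicates 1 to 4 and at 834, 1199.7, 1164 and 1171 FPKM in auranofin replicates 1 to 4, and its reads cannot be fully parted from those of other Serpina1 copies. Cfd, the adipokine complement factor D that is also made in fatty liver, stood at 1.31, 3.51, 25.7 and 2.08 FPKM under vehicle and 4.19, 16.4, 4.83 and 0.430 FPKM under auranofin, with Adipoq at or near 0 in the same libraries. Cyp2b13, a cytochrome P450 with higher levels in female liver, stood at 5.95, 3.73, 1.43 and 0.341 FPKM and 2.15, 1.45, 1.57 and 0 FPKM. Ciart, a clock repressor, stood at 1.03, 1.47, 4.32 and 0.647 FPKM and 2.95, 3.61, 8.38 and 0.877 FPKM. In each of these 4 genes the libraries of a group differed from each other by more than the group means did.

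Gadd45b, a stress gene, stood at 3.04, 3.03, 3.12 and 1.90 FPKM under vehicle and 6.68, 4.24, 1.67 and 9.53 FPKM under auranofin, and Cyp8b1, the enzyme that sets the cholic acid share of bile acids, at 334, 378, 323 and 408 FPKM and 286, 295, 371 and 124 FPKM. Auranofin replicate 4 was the highest of the 8 libraries for Gadd45b and the lowest for Cyp8b1, and it was also the lowest for Cidea, Cidec, Mogat1 and Hist1h1c.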
